A study of Mus musculus with 6 samples.

Results

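The genes described here are the receptors of the B cell cytokines BAFF and APRIL, together with BAFF itself, in mouse B cells that carried a mutant MYD88 or a mutant IKK. A gene was included when the platform annotation of an array feature gave exactly 1 of the symbols Tnfrsf13b (the receptor TACI), Tnfrsf13c (BAFF-R), Tnfrsf17 (BCMA) or Tnfsf13b (BAFF). This gave 4 of 19818 genes, each with 1 feature. APRIL, the gene Tnfsf13, shares its feature with other symbols and was not analysed here.

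Mature splenic B cells were activated, transduced with a retrovirus that also carried green fluorescent protein, kept with mitogen for 36 hours and then without it for 24 hours, and sorted for fluorescence. The cells carried MYD88 L265P, a mutant known from human lymphoma (MYD88_L265P), IKK K171E (IKK_K171E) or the empty vector (EV), with 2 Affymetrix mouse ST 1.0 arrays in each group. All 3 groups therefore share the activation, the infection and the withdrawal of the stimulus. No group used here carried the unmutated form of either protein, the labels do not say which IKK subunit was mutated, and they call the 2 arrays of a group biological replicates without saying whether they came from separate animals or cultures. P-values set each difference against the spread between arrays of a group. This spread was pooled over the 3 groups and moderated with that of the other features.

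BAFF binds all 3 receptors and APRIL binds TACI and BCMA. BAFF-R carries the survival signal that mature B cells need, through TRAF3, the kinase NIK and the noncanonical NF-kB pathway. TACI responds mainly to clustered ligand and restrains B cell numbers in mice, and BCMA supports long-lived plasma cells. BAFF is made mostly by myeloid and stromal cells, with some reported production by B cells.

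Values are log2 signals as deposited. Replicate arrays correlated across features at 0.995 in MYD88_L265P, 0.992 in IKK_K171E and 0.989 in EV, and array medians lay between 8.03 and 8.13. Transduced Myd88 had log2 signals of 12.25 and 12.31 in MYD88_L265P, 9.43 and 9.14 in IKK_K171E, and 9.30 and 9.35 in EV. Ikbkb, the IKK beta gene, had 11.35 and 10.68 in IKK_K171E, against 9.98 and 10.22 in EV. Ms4a1 (CD20), a defining B cell marker, had signals of 12.54 to 12.91 over the 6 arrays.

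The 250 bases before the gene start are shown for BAFF-R and TACI, because these receptors had differences of opposite sign between MYD88_L265P and IKK_K171E. They are taken from RefSeq promoter windows (GRCm38.p6), in which all 4 genes matched by symbol. The Tnfrsf13c stretch is chr15:82224381-82224630 on the minus strand and the Tnfrsf13b stretch is chr11:61126505-61126754 on the plus strand. Capitals mark matches to a loose form of the NF-kB motif, 3 G, any 5 bases and 2 C, searched on both strands.
Tnfrsf13c: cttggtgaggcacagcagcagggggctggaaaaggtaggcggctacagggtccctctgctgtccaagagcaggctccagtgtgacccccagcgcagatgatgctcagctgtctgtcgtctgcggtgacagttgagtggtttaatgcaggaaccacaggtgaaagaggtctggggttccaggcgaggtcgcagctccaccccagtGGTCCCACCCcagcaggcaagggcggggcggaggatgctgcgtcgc
Tnfrsf13b: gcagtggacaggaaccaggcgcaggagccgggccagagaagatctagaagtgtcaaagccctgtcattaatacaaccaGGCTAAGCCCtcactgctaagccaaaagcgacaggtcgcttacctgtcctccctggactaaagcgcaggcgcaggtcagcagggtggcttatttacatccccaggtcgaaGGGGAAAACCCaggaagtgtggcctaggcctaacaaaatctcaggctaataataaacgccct
The loose form matched once in Tnfrsf13c and at 3 positions in Tnfrsf13b, of which 2 overlap, and 50.8% of 32851 windows from 250 bases before to 50 after a gene start held such a match. The stricter NF-kB consensus, searched afterwards on both strands, had 0 matches in the windows of the 4 genes, against 8.46% of all windows. These matches are a description and mark no binding site.

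BAFF-R was the only one of the 4 genes that passed the test, and it fell in MYD88_L265P. Tnfrsf13c had log2 signals of 11.83 and 11.64 in MYD88_L265P, 12.20 and 12.08 in IKK_K171E, and 12.40 and 12.24 in EV. The arrays of the 3 groups did not overlap: both MYD88_L265P arrays were lowest, both EV arrays were highest, and the IKK_K171E arrays lay between them, close below EV. MYD88_L265P averaged 11.74 and EV 12.32 (SD 0.133 and 0.114, n = 2 each), a log2 fold change of -0.58 (SE 0.11, 95% interval -0.84 to -0.32, limma with Benjamini-Hochberg adjusted p = 0.018), or 0.67 times the EV signal. A change as large in either direction was seen in 9.73% of all features.

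The call of the BAFF-R difference was not stable. It was made in 13 of 16 other settings, with log2 fold changes of -0.67 to -0.49. Many of these settings, such as array weights or leaving out an IKK_K171E array, alter only the variance estimate or the features tested. They could not move the fold change from -0.58. Without EV replicate 2 the difference was -0.66. The call was lost without EV replicate 1 (-0.50, limma adjusted p = 0.0505), without MYD88_L265P replicate 1 (-0.67, limma adjusted p = 0.0672) and without MYD88_L265P replicate 2 (-0.49, limma adjusted p = 0.122). The median log2 fold change of all features in this comparison was -0.11, and with all arrays set to a common median Tnfrsf13c had -0.49 (limma adjusted p = 0.0264). IKK_K171E minus EV was -0.18 for Tnfrsf13c (SE 0.11, interval -0.44 to 0.082, limma adjusted p = 0.473). MYD88_L265P minus IKK_K171E was -0.40 (SE 0.11, interval -0.66 to -0.14, limma adjusted p = 0.131), above the threshold.

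**Figure D1:**
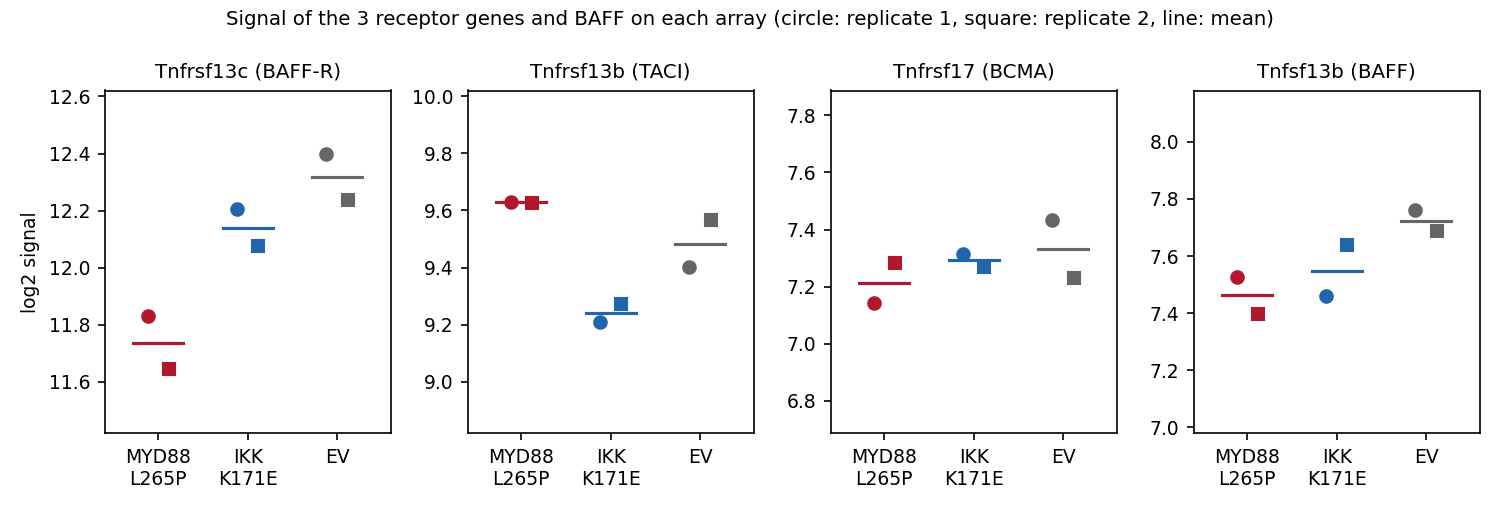
Log2 signal of each gene on each of the 6 arrays, by group, with MYD88_L265P left, IKK_K171E in the middle and EV right; circles and squares are replicates 1 and 2, short lines are means, and each panel spans the same width on its own axis, which does not start at 0. BAFF-R (Tnfrsf13c) reads 11.64 and 11.83 in MYD88_L265P, below both EV arrays at 12.24 and 12.40, while BCMA (Tnfrsf17) overlaps between the groups.

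The TACI arrays read highest in MYD88_L265P and lowest in IKK_K171E, without passing the test. Tnfrsf13b had 9.63 and 9.63 in MYD88_L265P, 9.21 and 9.27 in IKK_K171E, and 9.40 and 9.57 in EV. The groups did not overlap, and their order differed from that of BAFF-R. MYD88_L265P minus IKK_K171E was 0.39 (SE 0.094, interval 0.17 to 0.61, limma adjusted p = 0.102), a ratio of 1.31, and stayed positive and uncalled in all 16 other settings. Against EV the differences were 0.15 in MYD88_L265P (interval -0.076 to 0.37, limma adjusted p = 0.277) and -0.24 in IKK_K171E (interval -0.46 to -0.022, limma adjusted p = 0.249). The MYD88_L265P difference against EV was 0.06 without EV replicate 1, 0.23 without EV replicate 2, 0.01 under quantile normalization and 0.08 with the title number as a block. Set side by side, the TACI difference exceeded the BAFF-R difference by 0.72 in MYD88_L265P against EV and by 0.79 in MYD88_L265P against IKK_K171E. In IKK_K171E against EV the TACI difference minus the BAFF-R difference was -0.07. No test was made of these gaps between genes.

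BCMA showed no separation between the groups. Tnfrsf17 had 7.14 and 7.28 in MYD88_L265P, 7.32 and 7.27 in IKK_K171E, and 7.43 and 7.23 in EV. These signals lay below the lowest array median of 8.03 and, without detection calls, were not separated from background. The arrays of every pair of groups overlapped, and the range over 6 arrays was 0.29, the smallest of the 4 genes. MYD88_L265P minus EV was -0.12 (interval -0.37 to 0.13, limma adjusted p = 0.411), and IKK_K171E minus EV was -0.04 (interval -0.29 to 0.21, limma adjusted p = 0.895). MYD88_L265P minus IKK_K171E was -0.08 (interval -0.33 to 0.17, limma adjusted p = 0.672). These intervals leave room for modest changes either way, and the sign itself turned in all 3 comparisons under at least 1 other setting.

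The ligand BAFF was lower in both mutant groups than in EV on every array, by amounts that missed the threshold. Tnfsf13b had 7.53 and 7.40 in MYD88_L265P, 7.46 and 7.64 in IKK_K171E, and 7.76 and 7.69 in EV. These signals also lay below the lowest array median of 8.03 and were not separated from background. The EV arrays were above all others, and the MYD88_L265P and IKK_K171E arrays overlapped. MYD88_L265P minus EV was -0.26 (interval -0.50 to -0.022, limma adjusted p = 0.108), and IKK_K171E minus EV was -0.18 (interval -0.42 to 0.065, limma adjusted p = 0.44). MYD88_L265P minus IKK_K171E was -0.09 (interval -0.33 to 0.15, limma adjusted p = 0.634), and its sign turned under quantile normalization and without IKK_K171E replicate 2.

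**Figure D2:**
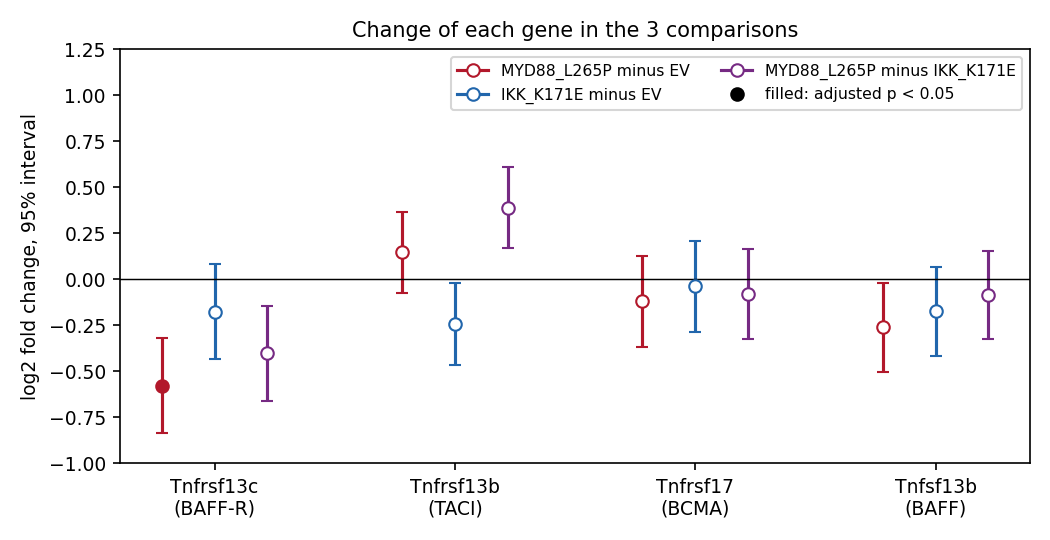
Log2 fold change of each gene in the 3 comparisons, with 95% intervals from limma; filled points were called and the horizontal line marks no difference. Tnfrsf13c in MYD88_L265P against EV, at -0.58, is the only called change.

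Counted over the 4 genes, 1 was called in MYD88_L265P against EV, where 16.6% of all features were called, and 0 in IKK_K171E against EV, where 1.37% were called. In MYD88_L265P against IKK_K171E the count was 0, with 1.75% of all features called. At an unadjusted limma p under 0.05 the counts were 2, 1 and 2 in the same order, with 38.7%, 17.1% and 19.6% of all features under that p. Arrays did not overlap for 3 genes in MYD88_L265P against EV (71.1% of all features), 3 in IKK_K171E against EV (46%) and 2 in MYD88_L265P against IKK_K171E (57%), so separation on 2 arrays a group is common in this table. The median log2 fold changes of the 4 genes were -0.19, -0.18 and -0.08, beside -0.11, -0.04 and -0.05 over all features. Both comparisons with EV use the same EV arrays.

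Among 19817 other genes, the 3 whose profile over the 6 arrays was nearest to that of Tnfrsf13c were Rassf4, a RAS-association domain protein, Lyl1, a basic helix-loop-helix transcription factor, and Lpar6, a lysophosphatidic acid receptor. After centring each gene on its mean, their root mean square differences from Tnfrsf13c were 0.0294, 0.0296 and 0.0579 log2 units, against a range of 0.75 for Tnfrsf13c itself. Rassf4 had 9.93 and 9.78 in MYD88_L265P, 10.38 and 10.17 in IKK_K171E, and 10.50 and 10.36 in EV. Likeness over 6 arrays is a description of these arrays.

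**Figure D3:**
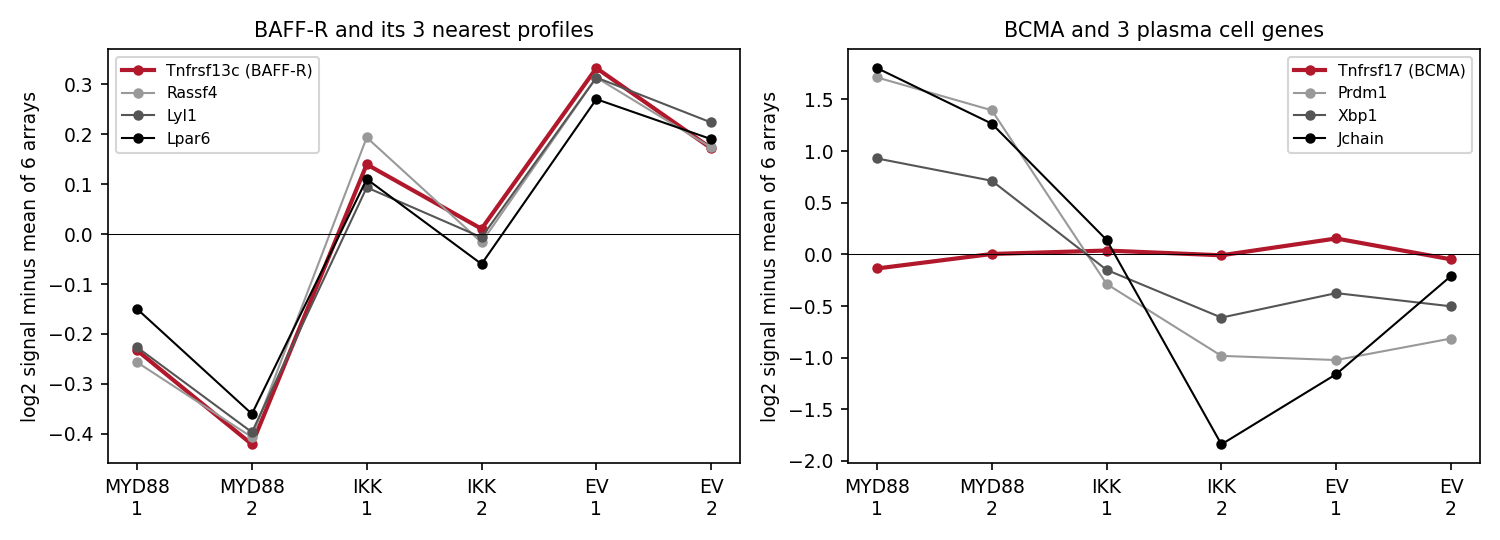
Log2 signal on each array, centred on each gene's mean over 6 arrays, for BAFF-R with its 3 nearest genes (left) and for BCMA with the plasma cell genes Prdm1, Xbp1 and Jchain (right); the lines joining arrays only guide the eye. The left-hand genes step down together in MYD88_L265P. On the right, Prdm1, Xbp1 and Jchain stand high in MYD88_L265P while BCMA stays within 0.29 log2 units, at signals below the array medians.

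B cell and plasma cell markers moved in the same comparison, and their part in the BAFF-R result was not tested. In bulk arrays, fewer cells of a type and less RNA per cell cannot be told apart. Of 7 measured B cell markers, 4 fell in MYD88_L265P against EV, namely Cd22 (-0.78), Cd79b (-0.67), Cr2 (-1.31) and Fcer2a (-1.81), and 0 rose (7.33% and 9.32% of all features). The summed level of the list was 14.17 to 14.19 in MYD88_L265P, 14.58 to 14.63 in IKK_K171E, and 14.72 to 14.82 in EV, on a log2 scale. Ms4a1 had a log2 fold change of -0.28 (limma adjusted p = 0.0705) and Pax5, the B cell identity factor, -0.24 (limma adjusted p = 0.099). In IKK_K171E against EV, where 0.413% of all features fell, 1 of the 7 did, Cd22 (-0.64, limma adjusted p = 0.0416), a call that held without IKK_K171E replicate 2 and was lost without any other single array. The count of 4 became 1 without MYD88_L265P replicate 1 and 0 without MYD88_L265P replicate 2.

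Of 8 genes listed as T cell markers, 4 fell in MYD88_L265P against EV (7.33% of all features): Cd2 (-0.69), Cd3g (-0.67), Cd3e (-0.47) and Cd4 (-0.37). The mean log2 signal of the 8 was 8.01 to 8.16 in MYD88_L265P, 8.56 to 8.67 in IKK_K171E, and 8.45 to 8.51 in EV. Their summed level was 11.98 to 12.05 in MYD88_L265P, 12.24 to 12.41 in IKK_K171E, and 12.55 to 12.63 in EV. The order of IKK_K171E and EV thus differs between the mean and the sum, and Cd2 was the only one of the 8 with a negative difference there (-0.57, limma adjusted p = 0.119). Cd2 had 11.27 to 12.12 over the arrays and the rest of the list 6.56 to 8.98, so the sum mainly follows Cd2. In these sorted B cells the Cd2 signal, and with it the sum, cannot be assigned to T cells. The signals of the rest were not separated from background. The calls of Cd3g and Cd4 were lost under quantile normalization and with a common median. The count of 4 became 0 without EV replicate 2 or either MYD88_L265P array and 2 without EV replicate 1 or under either rescaling. The part of these markers in the BAFF-R result was not tested.

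BCMA is a plasma cell gene in normal B cell development, and the plasma cell list did not move as one. Of 8 markers, 3 rose in MYD88_L265P against EV, where 9.32% of all features rose: Prdm1 (BLIMP-1, 2.47), Xbp1 (1.26) and Jchain (2.22). Prdm1 had 10.65 and 10.34 in MYD88_L265P, 8.66 and 7.96 in IKK_K171E, and 7.92 and 8.13 in EV. The surface marker Sdc1 (CD138) had a log2 fold change of -0.12 (limma adjusted p = 0.455), beside -0.12 for BCMA and a median of -0.11 over all features. Its signals of 7.58 to 7.86, like those of BCMA, lay below the lowest array median of 8.03 and were not separated from background. The summed level of the list was 13.38 to 13.68 in MYD88_L265P, 12.46 to 12.90 in IKK_K171E, and 12.62 to 12.73 in EV. In IKK_K171E against EV 0 of the 8 were called. The count of 3 became 2 without either EV array and 1 without either MYD88_L265P array.

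Markers of monocytes and macrophages, cells that usually make BAFF, were also compared, without detection calls. Lyz2 (11.09 to 12.96), Cd68, Mpeg1, Adgre1 and Itgam lay above the highest array median of 8.13 on every array. The other measured markers lay below it on some or all arrays, and their signal was not separated from background. The summed level of 11 monocyte and macrophage markers was 12.94 to 13.17 in MYD88_L265P, 13.86 to 14.02 in IKK_K171E, and 13.34 to 13.45 in EV. It was highest in IKK_K171E. Against EV, 1 of the 11 rose there, Csf1r (1.22, limma adjusted p = 0.0383), and 1 fell, Adgre1 (-1.17, limma adjusted p = 0.0361). The shares of all features were 0.956% and 0.413%. Lyz2 had a difference of 1.41 (limma adjusted p = 0.0501). MYD88_L265P had 2 of the 11 lower than EV and 0 higher (7.33% and 9.32% of all features). The differences of 4 of the 11 were positive, and the median was -0.05, beside -0.11 over all features. In MYD88_L265P against EV, Adgre1 fell by 1.78 (limma adjusted p = 0.00425, called with any 1 array left out) and Cd5l by 0.50 (limma adjusted p = 0.0137, lost without either MYD88_L265P array). In IKK_K171E against EV, the Csf1r call was lost without any 1 mutant array and the Adgre1 call without any 1 array of IKK_K171E or EV. BAFF was not highest there, at 7.46 and 7.64 against 7.76 and 7.69 in EV. The summed level of 8 dendritic cell markers was 11.06 to 11.11 in MYD88_L265P, 11.73 to 11.77 in IKK_K171E, and 11.32 to 11.33 in EV. Flt3, at 9.19 to 10.96 over the arrays, weighs heavily in this sum. The list went both ways in MYD88_L265P against EV: 1 rose, Ccr9, and 2 fell, Flt3 and Zbtb46 (9.32% and 7.33% of all features). In IKK_K171E against EV 2 rose, Flt3 and Itgax, and 0 fell (0.956% and 0.413% of all features). The part of these cells in the BAFF values was not tested.

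Downstream of the receptors, adaptors and NF-kB components fell more often than they rose in MYD88_L265P. Of 19 measured genes, 6 fell and 2 rose against EV (7.33% and 9.32% of all features), with a median of -0.17. Traf3, Chuk and Nfkb1 were also on the list but had no usable feature. The 6 were Traf5 (-0.67), Traf1 (-0.62), Birc2 (-0.60), Rel (-0.60), Otud7b (-0.53) and Traf3ip3 (-0.34). Birc2 encodes cIAP1, which with TRAF2 and TRAF3 keeps the NIK kinase degraded, Otud7b removes ubiquitin from TRAF3, and Rel is a canonical NF-kB subunit. The 2 that rose were the transduced Myd88 and Tnfaip3, the inhibitor A20 (0.53, limma adjusted p = 0.0414). Map3k14, which encodes NIK, had a log2 fold change of -0.09 and was not called. Without MYD88_L265P replicate 2 the counts were 0 lower and 1 higher, without MYD88_L265P replicate 1 they were 1 and 1, and without EV replicate 2 they were 3 and 1. The call of Tnfaip3 was lost under quantile normalization (limma adjusted p = 0.0594) and without any 1 array of these 2 groups (limma adjusted p of 0.0957 to 0.202).

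IKK_K171E left most of these components uncalled. Against EV, 1 of 19 rose, Tnfaip3 (1.02, limma adjusted p = 0.0291), and 0 fell (0.956% and 0.413% of all features). The largest others were Ikbkb (0.91), Traf5 (-0.51) and Nfkb2 (0.48), the noncanonical subunit p100, with limma adjusted p of 0.0848, 0.0802 and 0.0642. The Tnfaip3 call was lost without EV replicate 2, IKK_K171E replicate 1 or either MYD88_L265P array, at limma adjusted p of 0.0637 to 0.151. In MYD88_L265P against IKK_K171E, 4 of 19 were lower (0.877% of all features): Ikbkb (-1.33), Birc2 (-0.86), Traf1 (-0.76) and Nfkb2 (-0.65). The transduced Myd88 was the 1 gene called higher (0.873% of all features). Leaving out any 1 array of these 2 groups reduced the 4 to 0 or 1.

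**Figure D4:**
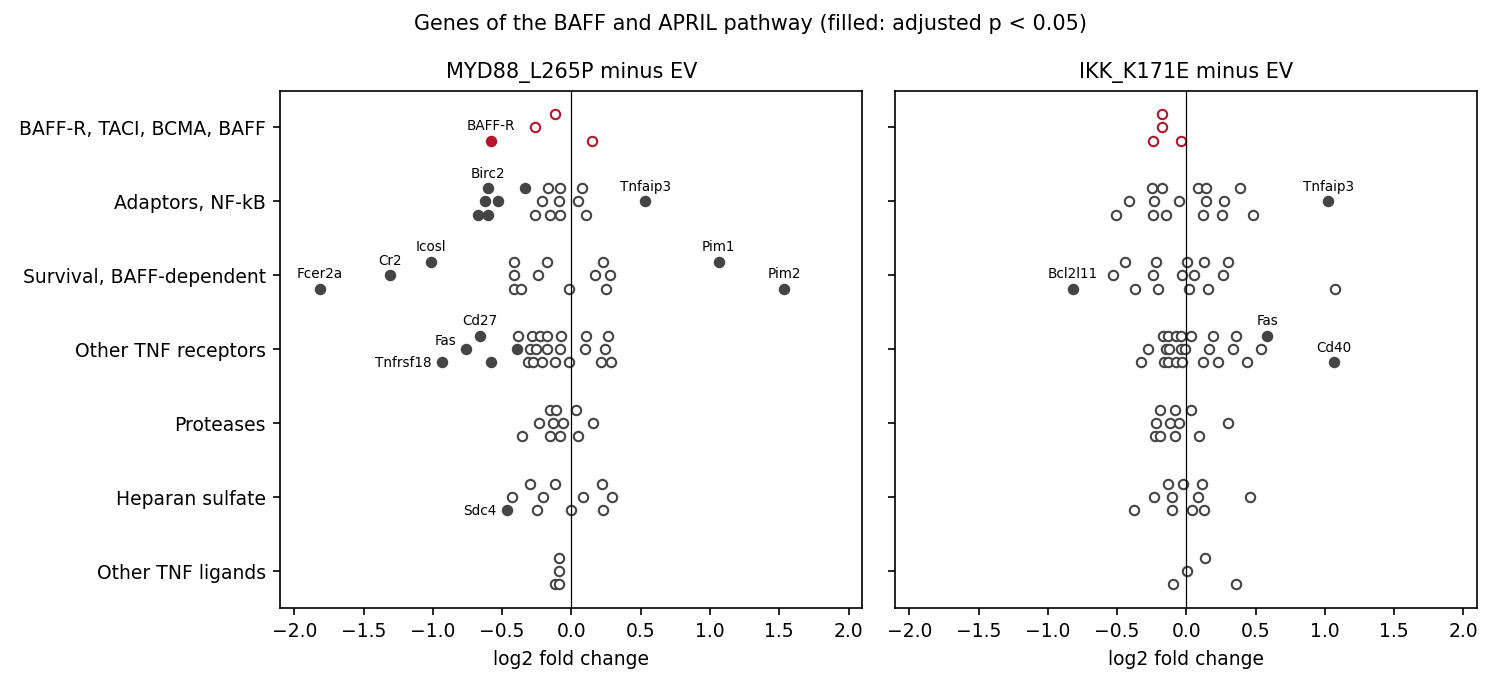
Log2 fold change against EV of every measured gene of the lists, with MYD88_L265P left and IKK_K171E right; each point is a gene, filled where called by limma at an adjusted p below 0.05, and Myd88 and Ikbkb are left out. In MYD88_L265P the filled points of the survival list lie on both sides of 0, with Pim2 at 1.53 and Fcer2a at -1.81.

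Genes that depend on BAFF or act in B cell survival moved in both directions in MYD88_L265P. Of 16 measured, 3 fell and 2 rose against EV, where 7.33% of all features fell and 9.32% rose. Of those that fell, Cr2 and Fcer2a are also counted among the B cell markers above. Cr2 (CD21), which BAFF-R signalling maintains in mice, had 10.32 and 9.96 in MYD88_L265P, 11.41 and 11.52 in IKK_K171E, and 11.20 and 11.70 in EV (-1.31, SE 0.184, limma adjusted p = 0.00824). Its MYD88_L265P arrays lay below all others. Fcer2a (CD23) fell by 1.81 (SE 0.408, limma adjusted p = 0.0283) and Icosl, the ICOS ligand that BAFF controls in mice, by 1.01 (limma adjusted p = 0.0245). The kinase genes Pim2 (1.53, limma adjusted p = 0.00483) and Pim1 (1.06, limma adjusted p = 0.00568) rose, and kept their calls in both rescalings and with any 1 array left out. Pim2 had 10.53 and 11.00 in MYD88_L265P, 9.11 and 8.86 in IKK_K171E, and 9.33 and 9.13 in EV. The antiapoptotic genes Bcl2 (0.23) and Mcl1 (-0.02) were not called. The count of 3 became 0 without MYD88_L265P replicate 2, 1 without MYD88_L265P replicate 1, 2 without EV replicate 2 and 5 without EV replicate 1, and was 6 under quantile normalization.

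In IKK_K171E the same list held 1 called gene. Bcl2l11, the proapoptotic BIM, fell by 0.82 against EV (limma adjusted p = 0.0374), a call lost without EV replicate 2 or any 1 array of the other groups (limma adjusted p of 0.0619 to 0.219). Against IKK_K171E, MYD88_L265P was lower in Fcer2a (-2.89) and Cr2 (-1.33) and higher in Pim2 (1.78) and Pim1 (0.80). Fcer2a had 9.01 and 8.57 in MYD88_L265P, 11.79 and 11.57 in IKK_K171E, and 9.89 and 11.32 in EV, so its EV arrays differed widely. Leaving out either IKK_K171E array gave 0 calls in the list for that comparison, and leaving out either MYD88_L265P array gave 1, a higher one.

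Among the other TNF receptors, the called genes were lower in MYD88_L265P and higher in IKK_K171E, each against EV. In MYD88_L265P, 5 of 25 fell against EV and 0 rose (7.33% and 9.32% of all features), with a median of -0.21: Tnfrsf18 (GITR, -0.93), Fas (-0.76), Cd27 (-0.66), Tnfrsf26 (-0.58) and Tnfrsf9 (4-1BB, -0.39). In IKK_K171E, 2 of 25 rose, Cd40 (1.06) and the death receptor Fas (0.58), and 0 fell (0.956% and 0.413% of all features). In MYD88_L265P against IKK_K171E, Fas (-1.34), Cd40 (-1.15) and Tnfrsf9 (-0.51) were lower, against 0.877% of all features. Fas against IKK_K171E kept its call with any 1 array left out. The count of 5 was 0 without MYD88_L265P replicate 2, 3 without MYD88_L265P replicate 1 and 2 without EV replicate 2, and the count of 2 was 0 without IKK_K171E replicate 1 or either MYD88_L265P array and 1 without any other array. Against IKK_K171E the count of 3 was 1 without any 1 array of these 2 groups, and the Tnfrsf9 call was lost under both rescalings (limma adjusted p of 0.0507 and 0.0521).

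The genes that act on the receptors and ligands at the protein level gave few calls. Of 11 proteases, among them Furin, which releases BAFF and APRIL, Adam10 and Adam17, which shed receptors, and presenilins, which cut BCMA, limma called 0 in all 3 comparisons (1, 2 and 0 at an unadjusted p under 0.05), and 1 lower in MYD88_L265P against EV once EV replicate 1 was left out. Of all features, 16.6% were called in MYD88_L265P against EV, 1.37% in IKK_K171E against EV and 1.75% in MYD88_L265P against IKK_K171E. The shares at an unadjusted limma p under 0.05 were 38.7%, 17.1% and 19.6% in that order. Log2 fold changes of the proteases ran from -0.36 to 0.15 in MYD88_L265P against EV. Another list held 11 measured genes for the carriers and the synthesis of heparan sulfate, which binds APRIL and TACI. Of these, 1 fell in MYD88_L265P against EV, Sdc4 (-0.47, limma adjusted p = 0.0282), where 7.33% of all features fell. That call was lost with a common median, without EV replicate 2 and without either MYD88_L265P array (limma adjusted p of 0.0538 to 0.152), and with a common median 1 other gene of the list was higher instead. Of 4 other TNF ligands measured (Tnfsf14, Tnfsf9, Cd70 and Cd40lg), 0 were called by limma in any comparison, and 0 at an unadjusted p under 0.05. With so few genes, these counts cannot be told apart from the shares of all features given above.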

How the data were processed

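Expression was measured on 6 arrays, grouped by their labels. The authors deposited log2 values for 24743 features. Per the submitters' processing notes, oligo and limma were used, and the steps, versions and genome build are not given in the sources used here. The values were not transformed or filtered, and no detection calls were used.

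Features with exactly 1 gene symbol were tested, 21542 in all (1522 had several symbols and 1679 none). Of these, 21472 were matched to the RefSeq table, with 0 symbols changed. Group means were fitted to all 6 arrays with limma 3.58.1 in R 4.3.3, with empirical Bayes moderation, two-sided p-values and Benjamini-Hochberg adjustment over all tested features. Calls needed an adjusted p below 0.05. Having 2 arrays a group limits the precision. The fit was tested on simulated data.

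In lists, genes entered by their brightest feature and were described by counts and the median, without a set test. The members and lists were chosen with earlier results of these data known. Named genes are the members, the called genes of each list, some of the largest others, and the 3 nearest profiles of a called member. A few uncalled genes of known role were named after their values were seen.

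Alternatives covered quantile normalization, a common median, an intensity trend, robust moderation, array weights, a low-signal filter, all features, only the 2 groups compared, 2 replicate blocks, and each array left out. The 2 blocks were the replicate number and the number in the array title.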

Additional observations from a re-analysis of the deposited data

How the results depend on the processing

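Of 192 values of the 4 genes (3 comparisons, 16 other settings), 182 kept their sign and side of the threshold, 3 lost the call, 0 gained one and 7 turned sign. Many of the settings alter only the variance estimate or the features tested, so they could not turn a sign. The lost calls were all of Tnfrsf13c in MYD88_L265P against EV, where leaving out 1 array gave -0.673 to -0.485. Tnfrsf17 turned sign in IKK_K171E against EV with the title number as a replicate block (0.0859), with left-out arrays giving -0.14 to 0.0623. It also turned in MYD88_L265P against EV under quantile normalization (0.0242) and with the title-number block (0.00544), and in MYD88_L265P against IKK_K171E under quantile normalization (0.0264). Tnfsf13b turned in MYD88_L265P against IKK_K171E under quantile normalization (0.0184), and left-out arrays gave -0.176 to 0.00263. The cause was not tested.

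Counts of called features moved more. For 295 in IKK_K171E against EV, array weights gave 123, all features 131, only the 2 groups 51, the replicate block 626, the title-number block 609 and left-out arrays 0 to 506. The 0 was without IKK_K171E replicate 1, where limma gave 2355 features (10.9%) at an unadjusted p under 0.05. For 3586 in MYD88_L265P against EV, left-out arrays gave 191 to 3554. For 377 in MYD88_L265P against IKK_K171E, only the 2 groups gave 592, the title-number block 1251 and left-out arrays 14 to 592. With a common median, the higher share of called features was 77.7% against 56% as deposited in MYD88_L265P against EV, and 66.4% against 49.9% in MYD88_L265P against IKK_K171E.

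Arrays with the same replicate number deviated together at correlations of 0.105 (MYD88_L265P and EV), 0.211 (IKK_K171E and EV) and 0.144 (MYD88_L265P and IKK_K171E). The array titles carry another number, 2 and 3 in EV but 1 and 3 in the other groups. By title, EV replicate 1 therefore has no partner, which limits the correlations with EV. The labels give no pairing and do not say whether arrays with the same replicate number share anything else. With the replicate block Tnfrsf13c had -0.579 in MYD88_L265P against EV (limma adjusted p = 0.00855), and no call of the 4 genes changed. The table gives no depth and no signal over background.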
